A study of Mus musculus with 5 samples.

Results

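The comparison is between 2 arrays: pre-double positive (preDP) thymocytes, sorted as lin- CD24+ CD25- CD44lo, and DN3 thymocytes, sorted as lin- CD24+ CD25+ CD44lo. The arrays were chosen by their sort labels, as 2 of the 5 in the series. All 8251 genes with a named probe set were read, and 4825 of them were above the signal floor of 130.4 on at least 1 of the 2 arrays. Both populations came from blast-enriched thymocytes of male C57BL6 mice aged 5 weeks, with no mutation or treatment named in the labels. The series used the thymuses of 10 mice. The labels do not state how many mice went into each array or whether their RNA was pooled. The other arrays held DN1 (lin- CD24+ CD25- CD44hi), DN2 (lin- CD24+ CD25+ CD44hi) and double positive (DP) CD4+8+ cells, the last from total thymocytes, and they serve below as side values.

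T-cell precursors in the thymus at DN3 depend on Notch receptors, which are cleaved on ligand contact and act with the DNA-binding protein RBPJ to switch on target genes. At this stage the T-cell receptor beta locus is rearranged, and a successful beta chain pairs with the invariant pre-T-cell receptor alpha chain (Ptcra) and the CD3 chains. Signalling by this pre-T-cell receptor, known as beta-selection, is followed by loss of CD25, rapid division and the first appearance of CD8 and CD4, on the way to the DP stage where the alpha locus is rearranged.

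Signals are linear probe set intensities, and a ratio is preDP over DN3 on the log2 scale, with values under the floor raised to it. A ratio with 1 array at or under the floor is a lower bound and is given as "at least". With 1 array per population there was no test, so genes were called by size, at 2-fold or more. Called higher in preDP were 55 of 4825 genes (1.14%), called lower were 117 (2.42%), and together they were 172 (3.56%). The shares of 1.14% and 2.42% are the background for every list count below. On the same rule 5.97% of genes were called between DN3 and DN2 and 23.0% between DP and preDP, comparisons that each share an array with this one. The median ratio over all 4825 genes was 0.01, and 84.3% of them differed by less than 1.5-fold. Most calls were small. Of the 55 higher genes 45 lay between 2-fold and 3-fold and 4 reached 5-fold or more, and of the 117 lower genes 85 and 7 did. In 12 of the higher and 28 of the lower genes the other array was at or under the floor.

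**Figure D1:**
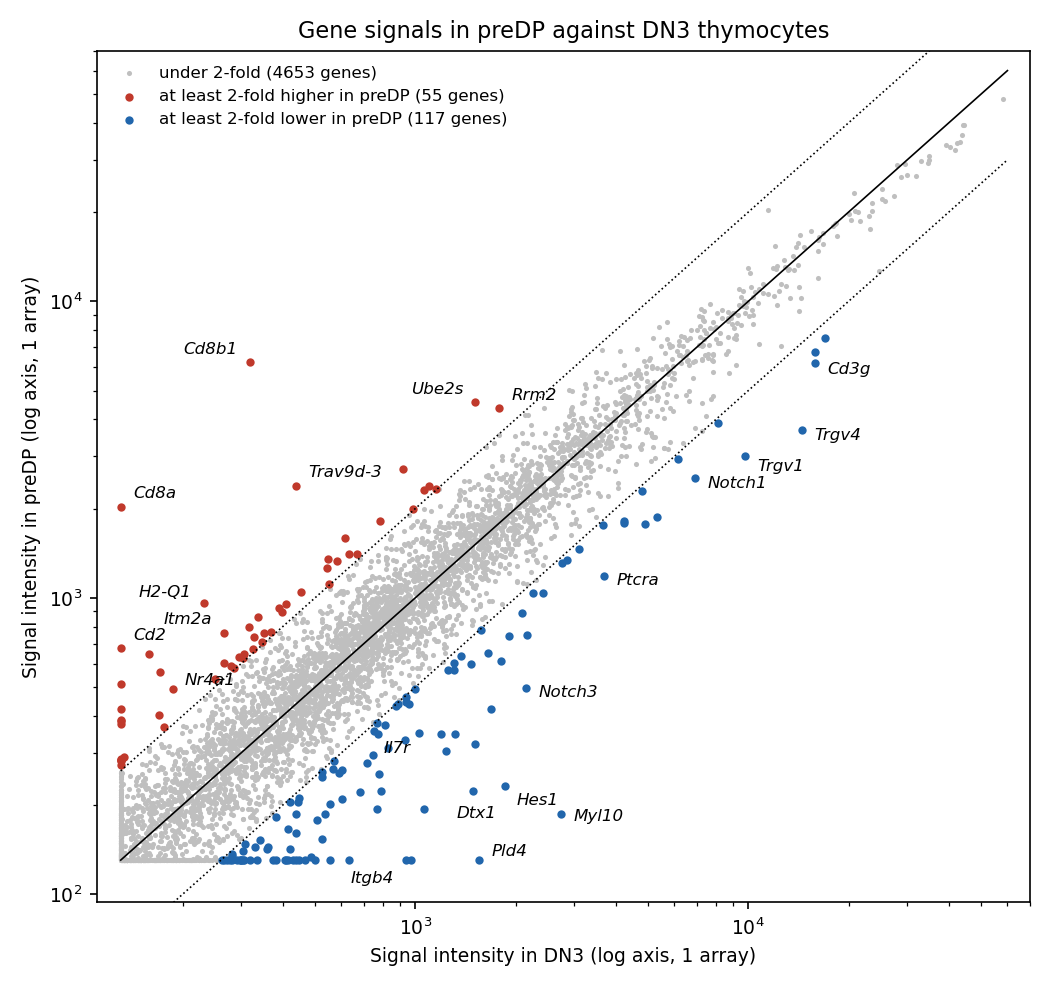
Signal of each gene above the floor on at least 1 array, DN3 on the x axis and preDP on the y axis, both log axes, with values under the floor drawn at it; 1 point is 1 gene. The solid line marks equal signal and the dotted lines 2-fold. The 55 genes called higher (red) lie above the upper dotted line, led by Cd8b1, and the 117 called lower (blue) lie below the lower one, led by Myl10.

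Error could be described only within the arrays. In 603 genes whose 2 brightest probe sets were above the floor on both arrays, the probe sets' log2 ratios differed with an SD of 0.43. It was 0.46 where the dimmer probe set had a DN3 signal under 300 (215 genes), 0.43 from 300 to 1000 (286 genes), 0.40 from 1000 to 3000 (81 genes) and 0.18 above 3000 (21 genes). Differences between sorts or mice are not in this spread. The 9 spiked hybridisation controls were lower on the preDP array, with a mean log2 ratio of -0.39 (range -0.56 to -0.25). Scaled to equal spiked controls, an alternative chosen after seeing the data, the median of genes above the floor on both arrays was 0.39 in place of 0.02, and 302 genes were higher and 54 lower. That made 84.8% of calls higher in place of 32.0%. Every ratio below is therefore relative to the bulk of genes on the array. The ratio of 3' to 5' signal was 3.31 in DN3 and 2.79 in preDP for actin and 1.76 and 1.39 for Gapdh. Its part in the results was not tested.

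The sort genes were read first. Il2ra, which encodes CD25, had a signal of 439 in DN3 and 33.9 in preDP, so it was at least 3.36-fold lower in the population gated without CD25. Cd24a, the gate shared by both, was 14356 in DN3 and 10224 in preDP. Cd44, the gene of the third gate, was under the floor on both arrays, at 11.4 and 8.50, and checks nothing. Cd4 had a signal of 132 in DN3 and 37.1 in preDP, and only the former exceeded the floor. Its log2 ratio of -0.02 is set by the floor, and with a lower floor, at the 35th percentile, it was -1.51.

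Markers of other cells were mostly under the floor. Of 21 myeloid markers on the array 2 were above it on either array, Csf3r (553 in DN3 and 201 in preDP) and Cd14 (189 and 272). The list's summed signal was 1414 in DN3 and 887 in preDP, and Lyz2, S100a8, S100a9 and Itgam were under the floor on both. Of 14 natural killer and innate lymphoid markers only Gzma, a granule protease gene, was above it, at 2902 in DN3 and 5036 in preDP, and the list summed to 3293 and 5496. B-lineage markers summed to 6952 and 8884, with 7 of 16 above the floor. Ighm, the mu heavy chain locus, made up most of that, at 4110 and 6792, with a second probe set at 1693 and 3785, while Cd79a, Ms4a1 and Ebf1 were under the floor. Cd79b, a B-cell receptor chain gene, went the other way, at 1234 in DN3 and 305 in preDP. Erythroid markers summed to 666 and 664 with 2 of 9 above the floor, and stromal and epithelial markers to 1613 and 1217 with 4 of 16 above it. Dendritic cell and class II genes summed to 6699 and 5591 with 11 of 16 above it and none called. Of 6 gamma delta and innate-like T-cell markers 2 were above the floor and none was called, and their sums were 1606 and 2034. The part of these cells in the results was not tested.

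The CD8 genes had the highest ratios among the 4825 genes. Cd8b1, the CD8 beta chain, had a signal of 319 in DN3 and 6242 in preDP, 19.6-fold higher. It was 342 in DN1, 19.4 in DN2 and 28020 in DP, so preDP was above every array but DP. Cd8a, the CD8 alpha chain, was 73.0 in DN3, under the floor, and 2031 in preDP, at least 15.6-fold higher. Cd2, an adhesion receptor of T cells, was 71.3 in DN3 and 675 in preDP, at least 5.18-fold higher, and 2254 in DP. A higher floor, at the 65th percentile, gave it a log2 ratio of 0.996, just under 2-fold. The single probe set of Cd8b1 has the suffix _s_at, which Affymetrix gives to probe sets that can read more than 1 transcript.

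Other genes of the double positive stage were split. In the list of coreceptor and double positive stage genes, 4 of 16 above the floor were called higher and 2 lower, with a median log2 ratio of 0.20 against 0.01 over all genes. The fourth gene called higher was Itm2a, a membrane protein gene of developing T cells, at 267 in DN3 and 763 in preDP (2.86-fold). Ly6d, a surface protein gene, was 15836 and 6729, or 2.35-fold lower, and Cd1d1, the lipid-presenting molecule that selects natural killer T cells, was 571 and 283. The recombinase genes Rag1 and Rag2 were not called. Rag1 had 5816 in DN3 and 3347 in preDP, and Rag2 had 486 and 340, while in DP they stood at 17836 and 2491. Dntt, which adds bases at receptor joints, was 23181 and 17582. All 8 recombination and end joining genes above the floor were under 2-fold, with a median of -0.08, or 0.31 when scaled to equal spiked controls.

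**Figure D2:**
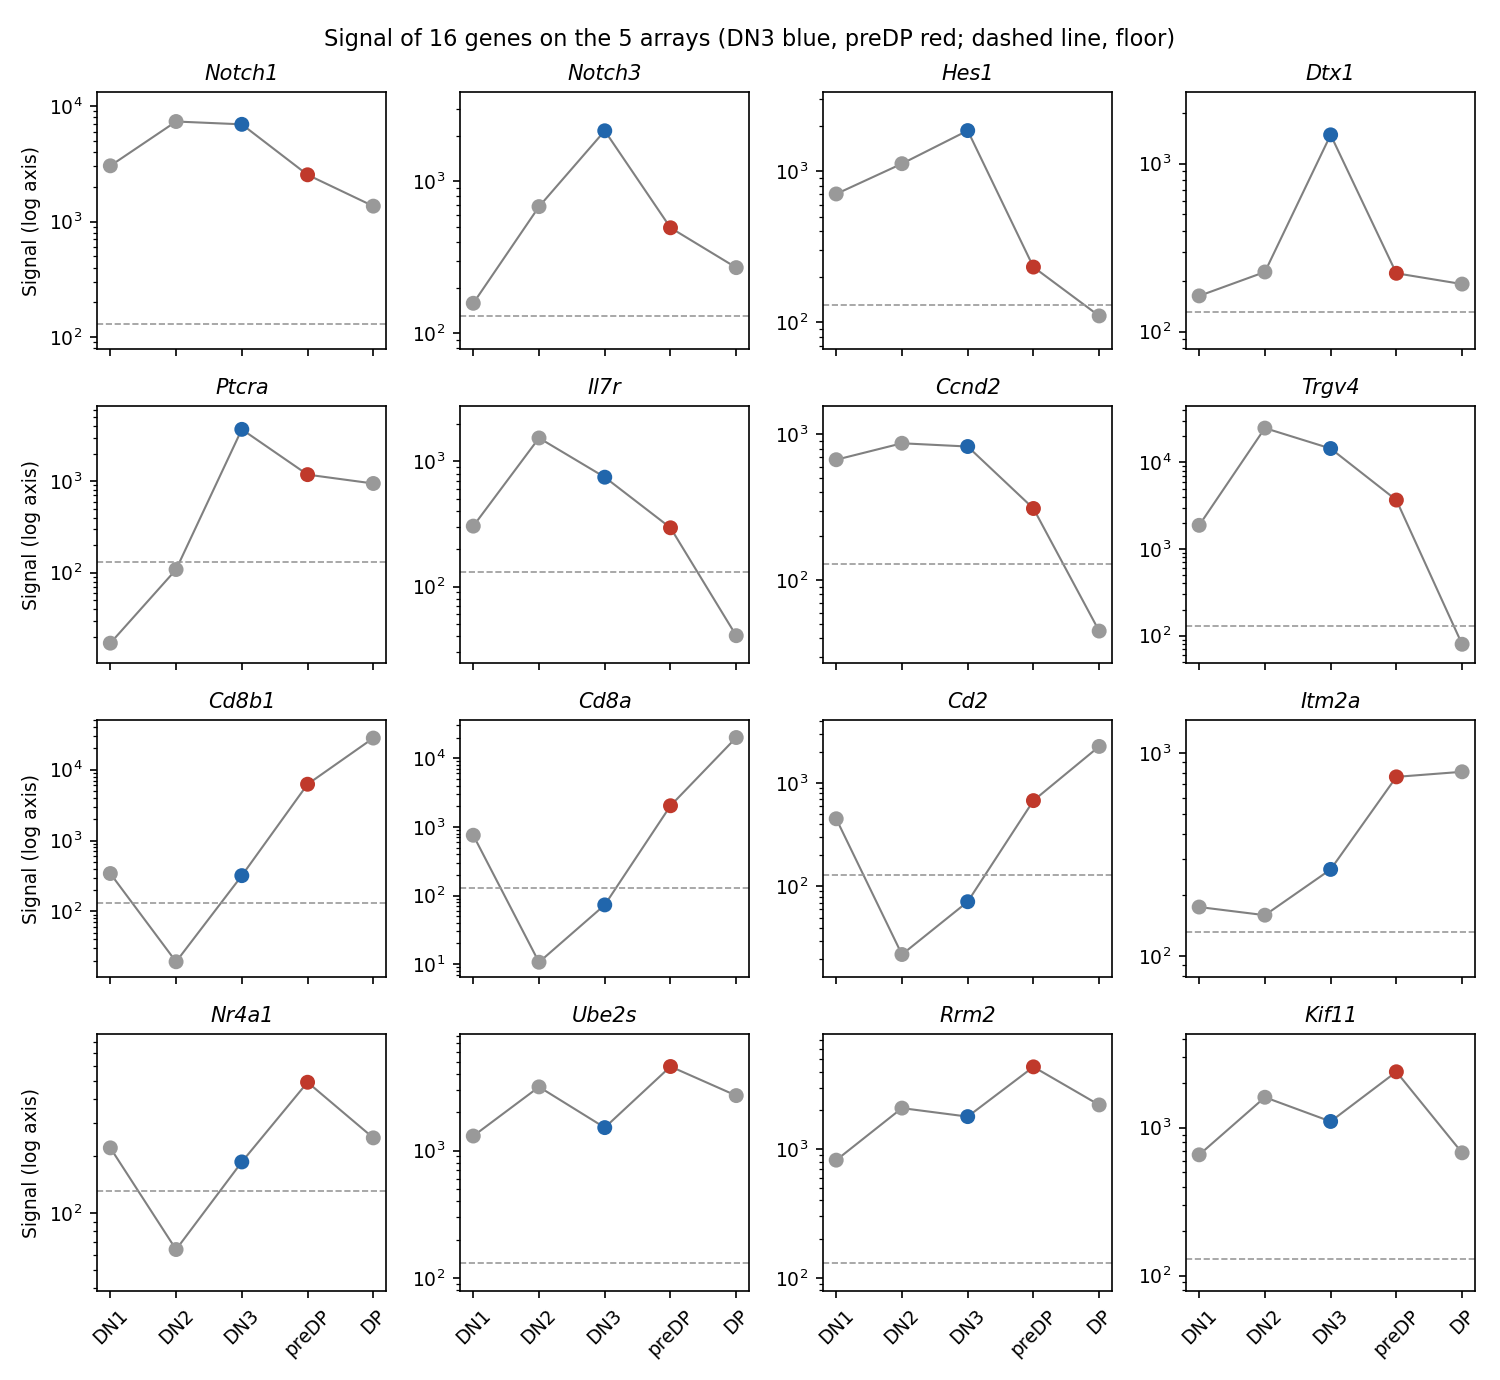
Signal intensity (log axis) of 16 genes on the arrays of the 5 populations, 1 array each, with DN3 in blue, preDP in red and the floor dashed. From DN3 to preDP the genes from Notch1 to Trgv4 were lower and those from Cd8b1 to Kif11 higher, with Hes1 at 1853 and 232 and Cd8b1 at 319 and 6242.

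Notch1, Notch3 and most of the Notch target genes were lower in preDP. Notch3 was 2152 in DN3 and 495 in preDP, 4.35-fold lower, and Notch1 was 6926 and 2535, 2.73-fold lower. The second Notch1 probe set read 656 in DN3 and 293 in preDP, a log2 ratio of -1.16 beside the first's -1.45. Notch2, Notch4 and the ligand genes Dll1 and Jag2 were under the floor on both arrays. Of 6 target genes above the floor 5 were called lower and none higher, with a median of -1.94. Scaled to equal spiked controls the median was -1.66.

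Hes1, a repressor of the basic helix-loop-helix family, was 1853 in DN3 and 232 in preDP, 8.00-fold lower. Dtx1, the Deltex ubiquitin ligase gene, was 1487 and 222, 6.68-fold lower, and its preDP value lay beside that of DN2 (227). Hes1 in preDP was under its DN1 and DN2 values of 706 and 1119. Ptcra was 3692 and 1181, 3.13-fold lower. Myc, a growth regulator, was the target that did not follow, at 1014 in DN3 and 1347 in preDP (log2 ratio 0.41). The list holds Notch3 and the gate gene Il2ra, and its members were chosen with their values on these arrays known.

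None of 12 Notch pathway modifiers above the floor was called. Their median was 0.07, or -0.15 with the lower floor. Rbpj, the DNA-binding partner, was 246 in DN3 and 180 in preDP. Mfng, a Fringe glycosyltransferase gene, was 926 and 1152, and Psenen, a gamma-secretase subunit gene, was 922 and 986. Numb, an inhibitor of Notch, had the lowest ratio of the 12, -0.69, at 530 and 329.

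Ptcra, a target gene whose promoter is in the RefSeq table, is shown because it carries the core letters read by RBPJ, TGGGAA, in capitals. The window runs 5′ to 3′ on the gene's strand, from 250 bases before its start to 50 after, in build GRCm38.p6 at chr17:46763663-46763962, minus strand.
Ptcra: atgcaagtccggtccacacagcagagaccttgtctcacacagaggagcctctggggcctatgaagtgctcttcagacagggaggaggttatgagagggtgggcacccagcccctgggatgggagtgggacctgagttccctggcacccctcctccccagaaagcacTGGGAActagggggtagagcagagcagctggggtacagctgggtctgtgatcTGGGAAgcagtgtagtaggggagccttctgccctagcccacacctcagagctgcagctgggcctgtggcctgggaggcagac
The string begins 84 and 32 bases before the start site, on the gene's strand. It was found on either strand in 1 of 4 target genes with a window and in 26.7% of 3967 genes above the floor that have one. The longer string GTGGGAA was in 0 of the 4 target genes and 6.91% of all. A match describes the letters and shows no binding.

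Of the pre-T-cell receptor genes Ptcra and Cd3g were called lower. Cd3g was 15850 in DN3 and 6179 in preDP, 2.56-fold lower. Cd3e was 7264 and 3644 and Cd3d was 5740 and 3181, log2 ratios of -0.995 and -0.85 that stayed just under the 2-fold line. Cd247, the zeta chain gene, was 773 and 828. The list of 5 had 2 called lower, none higher and a median of -0.995. Scaled to equal spiked controls the median was -0.61, and Cd3g at -0.97 was short of 2-fold. The CD3 genes did not go on down, since Cd3g, Cd3e and Cd3d stood at 11294, 8547 and 6493 in DP.

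Receptor loci differed from each other in direction. Trav9d-3, a variable segment of the alpha locus, was 437 in DN3 and 2391 in preDP, 5.47-fold higher, and 20852 in DP. Its second probe set read 135 and 1082, a log2 ratio of 3.005 beside 2.45. The brighter one has the suffix _f_at and can read related segments. Of the gamma locus, Trgv4 was 14496 and 3680 (3.94-fold lower) and Trgv1 was 9748 and 3009 (3.24-fold lower), and both were under the floor in DP. The beta segments were level, with Trbv1 at 27971 and 28753 and Trbv13-2 at 1184 and 1649. Of 5 segments above the floor 1 was thus called higher and 2 lower.

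Signalling genes downstream of the receptor were mostly within 2-fold. Among 22 kinases and adaptors above the floor 1 was called higher and 1 lower, with a median of 0.10. Each is 4.55%, against 1.14% higher and 2.42% lower over all genes. Sh2d1a, the adaptor SAP, was 545 in DN3 and 1348 in preDP (2.47-fold higher), and Tec, a kinase, was 1026 and 350 (2.93-fold lower). Zap70, the kinase that binds phosphorylated CD3 chains, was 4644 and 6928, with log2 ratios of 0.58 and 0.96 from its probe sets. Genes of the surface receptors Cd5, Cd6 and Cd28 were just short of the line, with log2 ratios of 0.98, 0.91 and 0.89. Cd5, a negative regulator of receptor signalling, was 367 and 722, and the second probe set of Cd6 gave 1.08.

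Of 17 immediate early and receptor-induced genes above the floor 12 had a ratio over 0, but only Nr4a1 was called. Nr4a1, an orphan nuclear receptor induced by receptor signalling, was 187 in DN3, 493 in preDP and 250 in DP, so preDP was the highest of the 5 arrays. Its log2 ratio was 1.40, and 0.54 under the higher floor. Egr2, a zinc finger factor of beta-selection, was under the floor in DN3 and 257 in preDP, a log2 ratio of at least 0.98. Id3, an inhibitor of E proteins, was 825 and 1304. Phlda1, outside the list, was under the floor in DN3 and 421 in preDP, at least 3.23-fold higher. Fos and Jun were under the floor on both arrays. Btg2 had the lowest log2 ratio of the 17, -0.79, at 4057 and 2347. Junb was 330 and 250, so the members were not all on 1 side. The median was 0.26, and 0.10 under the higher floor.

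Of 14 costimulatory and inhibitory receptor genes above the floor 5 were called higher and 1 lower, at a median of 0.90. That is 35.7% and 7.14%, against 1.14% and 2.42% of all genes. The ratio was over 0 in 9 of the 14 and under 0 in 5. Cd7 was 73.9 in DN3 and 383 in preDP (at least 2.94-fold) and Cd160 was 81.8 and 283 (at least 2.17-fold). Pdcd1, the inhibitory receptor PD-1, was 316 and 797 (2.52-fold higher) and 74.1 in DP. Cd52, a small surface glycoprotein gene, was 336 and 863 (2.57-fold higher). Cd2 was the fifth. The 1 called lower was Ctla4, an inhibitory receptor gene, at 336 and 88.1, at least 2.57-fold lower. Under the higher floor Cd2 and Cd7 had log2 ratios of 0.996 and 0.18, and Cd160 and Ctla4 were under it on both arrays. The list's median there was 0.82. Of these called genes only Cd52 and Pdcd1 were called in every planned setting that recounted genes above the floor on either array. Cd52 also counts among the markers of mature single positive cells, of which 3 of 6 above the floor were called higher and 1 lower. These are 50% and 16.7% of only 6 genes. Those 3 were Cd52, Itgb7 and Gimap4, the last 12.9 in DN3 and 386 in preDP. The lymph node homing gene Ccr7 and the egress genes S1pr1 and Klf2 were under the floor on both arrays. The list summed to 2296 in DN3 and 3611 in preDP, and its part in the results was not tested.

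Of 45 genes of G2 and mitosis above the floor 8 were called higher and none lower, while 43 had a ratio over 0 and the median was 0.68. Over all genes 2485 of 4825 had a ratio over 0. Ube2s, which extends ubiquitin chains for the anaphase-promoting complex, was 1515 in DN3 and 4575 in preDP, 3.02-fold higher. Bub1 (398 and 896), a checkpoint kinase, and Cenpa (328 and 739), the centromeric histone, were each 2.25-fold higher. Kif11, a spindle motor, was 1103 and 2389. Ect2, needed for cytokinesis, was 669 and 1404, and Ttk, a checkpoint kinase, was 325 and 673. Most of these calls lay near the 2-fold line. With a constant added Bub1, Cenpa, Ect2 and Ttk had log2 ratios of 0.96, 0.92, 0.94 and 0.82. Bub1 had 0.47 by the mean over probe sets. Ube2s and Kif11 were called in every planned setting that recounted genes above the floor on either array.

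Second probe sets were read for several of these genes. Those of Ncaph and Cdc25c gave log2 ratios of 0.95 and 0.85 beside 1.02 and 1.03, and that of Kif20a gave 1.06 beside 0.93. The second probe set of Bub1 was dim, at 82.9 and 153 with DN3 under the floor, and gave at least 0.23 beside 1.17. Ran and Ube2c were the 2 with a ratio under 0, at -0.03 and -0.06.

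Of 38 S phase genes above the floor 1 was called higher and none lower, while 35 had a ratio over 0 and the median was 0.54. That was Rrm2, a subunit of ribonucleotide reductase, at 1788 in DN3 and 4354 in preDP (2.44-fold). Top2a, Cdc45 and Pola1, of DNA unwinding and replication, lay just under the line with log2 ratios of 0.998, 0.99 and 0.97. Chaf1a, Rfc2 and Pold2 had ratios under 0, the lowest -0.10. Second probe sets of Pola2 and Tk1 went the other way from the first. They gave at or below -0.64 and -0.46 beside 0.53 and 0.36, with preDP under the floor. Those of Mcm3 and Cdt1 gave 0.58 and 0.37 beside 0.59 and 0.51. By the mean over probe sets the list's median was 0.44. Ratios varied among members, since Pcna was 7372 and 9271 (0.33) and Mcm5 was 9987 and 12945 (0.37). Division genes outside these lists were also among those called higher, here chosen after their values were seen. Anln was 409 and 952, Dlgap5 was 453 and 1048, and E2f8 was 784 and 1818 with a second probe set at 1.10 beside 1.21.

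The promoters of these genes hold letters that the array did not use. CCAAT is the string read by the factor NF-Y, and TTTGAA is the core of the CHR element of late cell-cycle genes. Of 37 genes of G2 and mitosis above the floor with a RefSeq window 27 (73%) held CCAAT on either strand and 22 (59.5%) held TTTGAA. Among all 3967 genes above the floor with a window the shares were 43.5% and 14.7%, and among all 32851 windows of that length 37.4% and 17.9%. CCAAT was also common in the S phase genes, in 21 of 35 (60%). GCGGGAA, part of the site read by E2F factors, was in 15 of 35 S phase genes (42.9%), 1 of 37 genes of G2 and mitosis (2.7%) and 10.6% of all genes above the floor, or 4.6% of all windows. TTTGAA was in 6 of the 35 (17.1%). The RBPJ core string TGGGAA was also in 15 of the 35 (42.9%), against 26.7% of all genes above the floor. It was in 7 of 37 genes of G2 and mitosis (18.9%). The longer GTGGGAA was in 5 of the 35 (14.3%) and 1 of the 37 (2.7%), against 6.91%.

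Shown are the 3 genes of G2 and mitosis with the highest ratios that hold both strings, and the S phase gene with the highest ratio that holds GCGGGAA. Capitals mark all 3 strings wherever they occur on either strand. Each window is written 5′ to 3′ on the gene's strand in build GRCm38.p6. Cenpa is at chr5:30666636-30666935 (plus), Kif11 at chr19:37376132-37376431 (plus), Ect2 at chr3:27153805-27154104 (minus) and Pola1 at chrX:93632106-93632405 (minus).
Cenpa: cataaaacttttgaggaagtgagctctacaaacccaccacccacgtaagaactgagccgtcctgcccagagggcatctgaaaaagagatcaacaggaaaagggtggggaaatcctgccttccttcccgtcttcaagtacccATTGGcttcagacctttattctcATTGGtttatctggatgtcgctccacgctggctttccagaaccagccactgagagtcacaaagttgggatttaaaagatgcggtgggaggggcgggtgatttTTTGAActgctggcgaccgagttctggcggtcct
Kif11: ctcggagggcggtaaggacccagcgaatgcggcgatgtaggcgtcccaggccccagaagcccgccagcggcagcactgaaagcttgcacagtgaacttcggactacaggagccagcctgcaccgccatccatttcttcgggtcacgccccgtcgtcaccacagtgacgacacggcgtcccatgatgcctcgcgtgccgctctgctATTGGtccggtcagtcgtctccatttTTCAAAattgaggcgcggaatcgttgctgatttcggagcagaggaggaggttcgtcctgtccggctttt
Ect2: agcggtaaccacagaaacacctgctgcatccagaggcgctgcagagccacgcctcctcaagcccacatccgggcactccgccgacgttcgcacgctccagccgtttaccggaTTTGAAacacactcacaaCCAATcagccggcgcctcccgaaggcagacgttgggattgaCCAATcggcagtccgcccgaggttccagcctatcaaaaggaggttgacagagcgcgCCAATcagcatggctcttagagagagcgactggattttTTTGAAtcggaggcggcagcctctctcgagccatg
Pola1: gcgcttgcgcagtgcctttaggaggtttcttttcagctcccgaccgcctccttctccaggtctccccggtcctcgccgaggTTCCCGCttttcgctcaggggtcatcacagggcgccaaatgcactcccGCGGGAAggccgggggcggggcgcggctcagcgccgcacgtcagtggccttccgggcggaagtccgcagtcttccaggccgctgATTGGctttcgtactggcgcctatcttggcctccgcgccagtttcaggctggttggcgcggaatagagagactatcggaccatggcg
In Cenpa and Ect2 a TTTGAA begins 16 and 15 bases after the start site, and in Kif11 its reverse complement begins 19 bases before it. CCAAT, or its reverse complement ATTGG, begins 109 and 86 bases before the start in Cenpa, 45 in Kif11, and 120, 79 and 23 in Ect2. Ect2 holds a further TTTGAA that begins 138 bases before the start. In Pola1 GCGGGAA begins 121 bases before the start and its reverse complement 169 before, and an ATTGG begins 37 before. The letters describe these windows and show no binding.

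**Figure D3:**
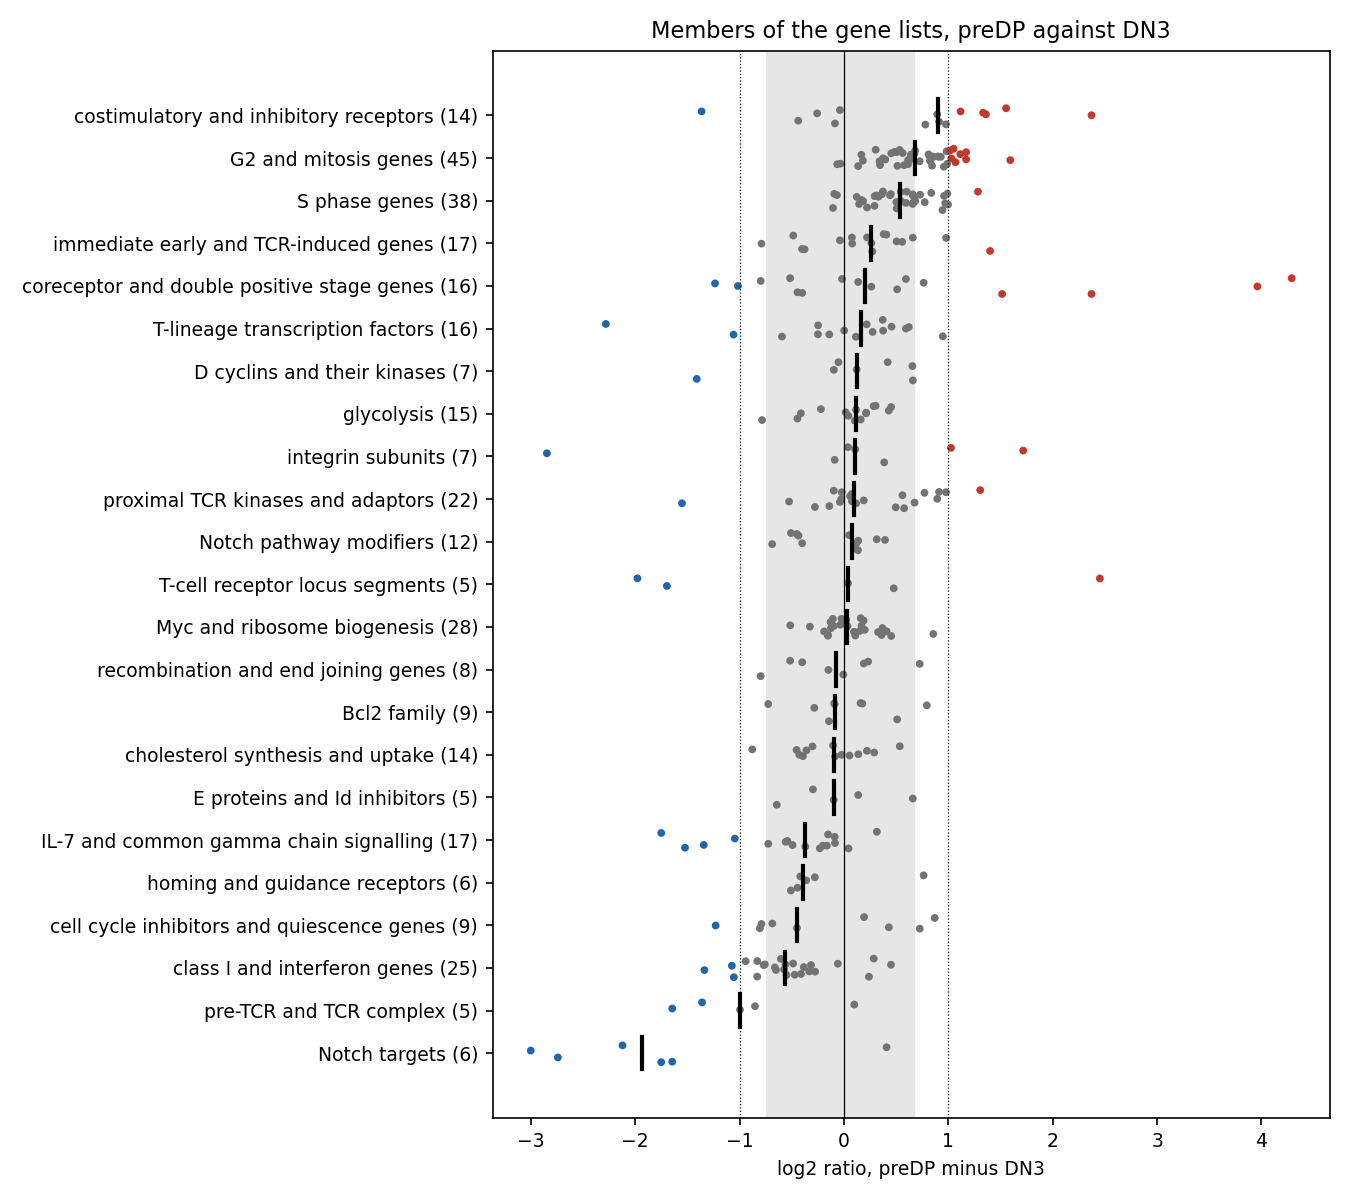
Log2 ratio (preDP minus DN3) of every list member above the floor on either array, 1 point per gene, with the number of members in brackets, the list's median as a black bar, called genes in red (higher) and blue (lower), dotted lines at 2-fold and a grey band from the 5th to the 95th percentile of all genes above the floor on both arrays. Notch targets have the lowest median drawn (-1.94), costimulatory and inhibitory receptors the highest of those drawn (0.90), and genes of G2 and mitosis lie almost wholly above 0.

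Regulators of the cell cycle were split. Ccnd2, the cyclin D2 gene, was 825 in DN3 and 311 in preDP, 2.66-fold lower, and 44.9 in DP. Ccnd3, the cyclin D3 gene, was 3519 and 4708 with a log2 ratio of 0.42, while Cdk4 was 8007 and 7492. Of 7 genes of this list above the floor Ccnd2 was the 1 called. Among 9 cell cycle inhibitors and quiescence genes above the floor Cdkn1a, the p21 gene, was called lower, at 438 and 187 (2.34-fold). Its second probe set gave a log2 ratio of -1.67, with preDP under the floor. Btg2, Foxo3 and Slfn2 had ratios of -0.79, -0.80 and -0.69, whereas Cdkn2c, the p18 gene, had 0.87. The list's median of -0.45 was 0.023 under a lower floor, at the 35th percentile.

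Interleukin 7 signalling keeps DN cells alive. In the list of this pathway and its relatives 4 of 17 genes above the floor were called lower and none higher, and 1 of the 4 was the gate gene Il2ra. The 4 make 23.5%, against 2.42% of all genes called lower, and the median was -0.37. Scaled to equal spiked controls it was -0.045, and Il7r and Cish were short of 2-fold. Il7r, the receptor chain, was 748 in DN3 and 295 in preDP, 2.54-fold lower, and 40.5 in DP. Cish and Socs3, feedback inhibitors of cytokine receptors, were 281 and 136 and 536 and 187. The second probe set of Socs3 read 414 and 9.50. Bcl2, a survival gene, was 428 and 259, with log2 ratios of -0.72 and -0.17 from its probe sets. None of 9 Bcl2 family members above the floor was called, and Bid (606 and 1051) and Mcl1 (1370 and 1289) were the brightest.

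Transcription factors of the T lineage were mostly within 2-fold, with 2 of 16 above the floor called lower, none higher and a median of 0.17. Spib, an Ets family factor, was 634 in DN3 and 25.6 in preDP, at least 4.86-fold lower, although its second probe set was under the floor on both arrays. Sox4 was 3672 and 1765 by its brighter probe set and 613 and 772 by the other, so it has no settled direction. Gata3, Gfi1 and Lef1 had ratios of -0.14, -0.25 and 0.28. Bcl6, a repressor that reached 3339 in DP, was under the floor in DN3 and 252 in preDP, a log2 ratio of at least 0.95. Of the E proteins and their inhibitors none of 5 above the floor was called. Tcf12, the E protein HEB, was 3454 and 3798, and Id3 had the highest ratio of the 5.

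Progenitor genes were mostly under the floor on both arrays. Of 16 on the array 4 were above the floor, all 4 with a ratio under 0, and 1 was called. Nfe2, a leucine zipper factor, was 4606 in DN2, 467 in DN3 and 59.4 in preDP, at least 3.58-fold lower. Kit, the stem cell factor receptor, was 254 and 123, a log2 ratio at or below -0.96. Flt3, another of the 4, changed little, at 471 in DN1, 390 in DN3 and 314 in preDP. The median of -0.64 became 0.043 when scaled to equal spiked controls, with 7 members above the floor. Quantile normalisation gave -0.26 and equal medians -0.25.

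Of 25 class I and interferon genes above the floor 3 were called lower and none higher. That is 12% lower, against 2.42% of all genes. A ratio under 0 was found in 22, against 2340 of all 4825 genes, and the median was -0.56. Scaled to equal spiked controls the median was -0.19 and the 3 were short of 2-fold. H2-K1, a class I heavy chain, was 8092 in DN3 and 3897 in preDP by its brightest probe set and 976 and 576 by the second, log2 ratios of -1.05 and -0.76. With plain probe sets alone its ratio was -0.06. H2-D1, the other heavy chain, was 6388 and 3326, and B2m, the light chain, was 12523 and 7042. Isg20 (359 and 142) and Isg15 (939 and 446), interferon-induced genes, were the other 2 called. Irf8 and Irf1 had ratios over 0, of 0.45 and 0.24. H2-Q1, a nonclassical class I gene outside the list, was 232 and 961, 4.14-fold higher, from a probe set with the suffix _f_at.

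Integrin subunits gave 2 calls higher and 1 lower among 7 above the floor. These few genes make 28.6% and 14.3%, beside 1.14% and 2.42% of all genes. Itgb4, the beta 4 chain, was 937 in DN3 and 54.5 in preDP, at least 7.19-fold lower. Itgb2, the beta chain of LFA-1, was 171 and 563 (3.29-fold higher), and its partner Itgal was 267 and 251. Itgb7 was 285 and 581, 2.04-fold higher, with a second probe set under the floor on both arrays. None of 6 homing and guidance receptors above the floor was called, and Selplg (8551 and 6657) and Cxcr4 (914 and 672) were the brightest.

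Listed genes of growth and metabolism that were above the floor were all within 2-fold. None of 28 genes of ribosome biogenesis and Myc targets above the floor was called, with a median of 0.03 and Npm1 (20116 and 19654) and Ncl (16813 and 17004) the brightest. None of 15 glycolysis genes was called, at a median of 0.12, with Hk1 at 21671 and 18604 and Ldha at 15396 and 17215. None of 14 cholesterol genes was called, at a median of -0.09 (0.29 when scaled to equal spiked controls), with Fdps at 5088 and 4735 and Srebf1 at 2260 and 2132.

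Several of the largest ratios belonged to genes in no list. Myl10, a myosin light chain gene, was 2744 in DN3 and 186 in preDP, 14.8-fold lower, and was bright in DN2 (2219) as well. Pld4, of the phospholipase D family, was 1556 and 117 (at least 11.9-fold lower), and Khdc1c was 974 and 56.2 (at least 7.46-fold lower). The probe set of Khdc1c has the suffix _f_at and can read related genes. Atxn7l1 was 1059 and 194 (5.47-fold lower) but 1651 in DP. Capn5, a calpain gene, was 1511 and 322, Akr1c13, an aldo-keto reductase gene, was 1687 and 422, and Acbd6 was 766 and 195. Sema4a, a semaphorin gene, was 1314 and 347, and Repin1 was 486 and 133. Adgrd1, Tpd52 and Cd93 were at least 4.25-fold, 3.83-fold and 3.43-fold lower.

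On the higher side, Tubb2a, a beta tubulin gene, was 919 in DN3 and 2716 in preDP (2.96-fold), and Mns1 was 616 and 1597 (2.59-fold). The brighter probe set of Tubb2a has the suffix _f_at and can read related genes. The other was under the floor on both arrays, and the mean over probe sets gave 0.78. St6gal1, a sialyltransferase gene, was 104 and 514, at least 3.94-fold higher. Gsn, the actin-severing protein gelsolin, and Ager were at least 2.87-fold and 2.19-fold higher. Tyms-ps was 159 and 646 by its brighter probe set, 4.06-fold higher, but 210 and 124 by the other, so it has no settled direction.

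Genes with a further probe set above the floor gave a view of how firmly single calls stand. Of 10 genes called higher with such a probe set, 9 pointed the same way by it, and 3 were again at least 2-fold. Their median log2 ratio was 0.58 by the second and 1.13 by the first. Of 19 genes called lower 17 pointed the same way and 4 were again at least 2-fold, with medians of -0.58 and -1.22. The 3 were Trav9d-3, Klf10 and E2f8, and the 4 were Notch1, Socs3, Cox6b2 and Cdkn1a. The exceptions in direction were Tyms-ps, Sox4 and Gstm3. The first probe set was used for the call and the second was not, so the second is the reading free of that choice. It is also the dimmer one. In Evl, Igfbp4, Bub1, Sstr2, Klf3, Tcf25, Grn and Tyms-ps, among others, 1 of its 2 values was under the floor. Such ratios are lower bounds in size, which makes the medians and 2-fold counts by the second probe set smaller. By the mean over probe sets Tubb2a, St6gal1, Itgb7, Bub1, Tyms-ps, Sema4a, Repin1, Tpd52, Ly6d, Csf3r, H2-K1 and Sox4 were short of 2-fold. Calls of dim genes also depended on the floor. Under the higher floor Cd2, Cd7, Gimap4, Gsn, Phlda1, St6gal1, Itgb2, Itgb7, Nr4a1 and Ttk were short of 2-fold higher, and Spib, Socs3, Cdkn1a, Isg20, Csf3r, Nfe2, Repin1, Tpd52, Adgrd1, Cd93, Cd1d1 and Il2ra short of 2-fold lower. Cd160, Ager, Ctla4 and Cish were under that floor on both arrays and so were not called.

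**Figure D4:**
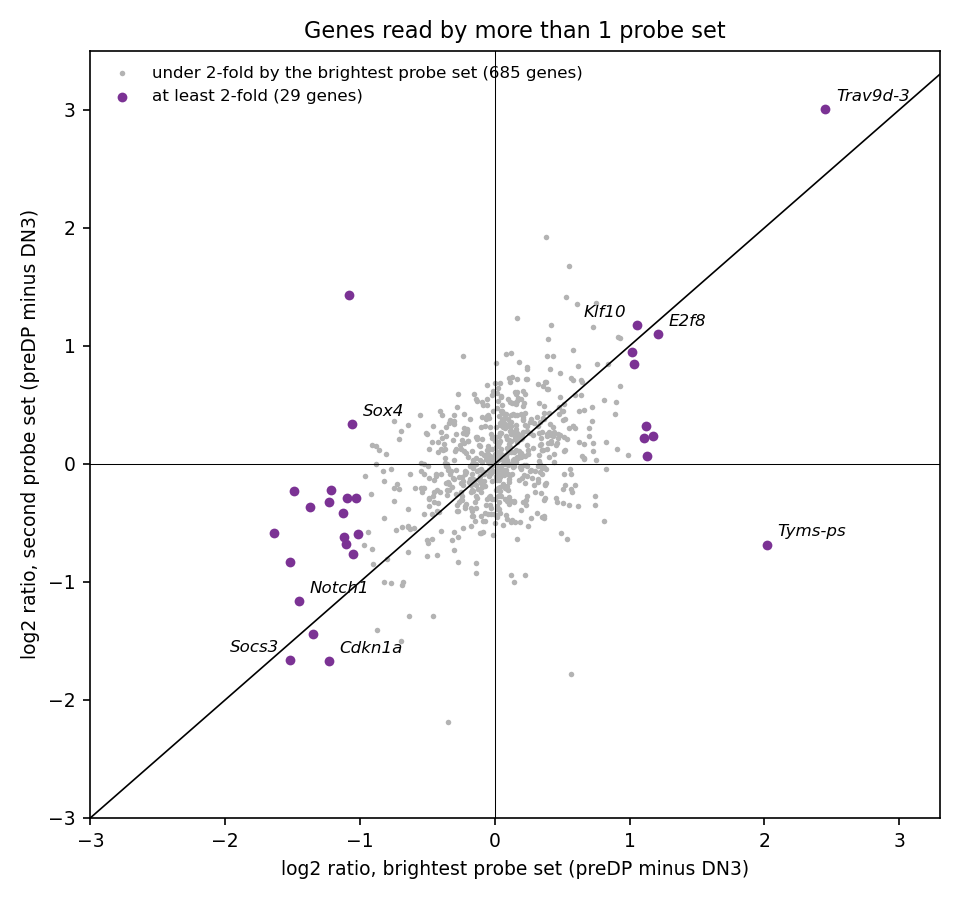
Log2 ratio (preDP minus DN3) by a gene's brightest probe set on the x axis and by its second on the y axis, for genes whose second probe set was above the floor on either array, 1 point per gene; the diagonal marks equal ratios. The 29 called genes are purple and the 685 others grey. Notch1 (-1.45 and -1.16) lies near the diagonal, Trav9d-3 (2.45 and 3.005) lies above it, and Tyms-ps (2.02 and -0.69) is far from it.

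The ratios varied with signal level. In 30 genes with a mean signal over 20000 the median log2 ratio was -0.22, whereas it was between -0.01 and 0.03 in the 5 classes of lower signal. The 95th percentile of ratios was 0.67 from 1000 to 3000, 0.52 from 3000 to 10000 and 0.32 from 10000 to 20000, whereas the 5th was -0.65, -0.73 and -0.76. Most of these 30 encode ribosomal proteins, and none was called.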

How the data were processed

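RNA of sorted thymocytes was labelled as biotin cRNA and hybridised to Affymetrix arrays, 1 per population, per the labels' protocols. Per the submitters' processing notes, the deposited linear intensity of each probe set comes from MAS5 in Affymetrix Expression Console 1.0. No source states its settings. With 2% of values trimmed from either end, the array mean was 500.4 in DN3 and in preDP, as scaling to 1 target would give. Totals of mRNA per cell are therefore not comparable, and fewer cells of a type and less RNA per cell cannot be told apart.

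Of 12488 probe sets, 10833 had 1 gene symbol and were used, 396 had several, 1193 had none and 66 were controls. Symbols followed the platform annotation, updated by gene identifier through the RefSeq table of GRCm38.p6. Values under the floor, the median of all used values over the 5 arrays (130.4), were raised to it before log2. In 2073 genes several probe sets were present, and the brightest by mean log2 signal over the 5 arrays stood for the gene. Python 3.11.15 and pandas 2.3.3 were used, and the counting was tested on simulated data. The planted changes were larger than most calls here and lay only in genes well above the floor. Noise came from the spread between probe sets. The simulation thus does not check small calls, calls of dim genes, or differences between sorts or mice. The number of arrays limits the precision.

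The comparison, the gene lists, the floor and the 2-fold size were chosen with earlier results of these data known. Named genes are the markers, the 12 highest and 12 lowest ratios measured on both arrays, the 8 brightest in each direction with the other array at or under the floor, and up to 6 called members per list (the 2 brightest where none was called, and every called receptor segment). List members that were not called were chosen after their values were seen, as were second probe sets. The symbol pattern for receptor segments also took in Tradd, an adaptor gene, which was left out. Alternatives were quantile normalisation, equal medians, other floors, a constant added, the mean over probe sets, second probe sets, plain probe sets, genes above the floor on both arrays and equal spiked controls.

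Promoter windows and sequences are from RefSeq (GRCm38.p6), matched by symbol for 3967 of 4825 genes. Searched on both strands were 8 strings: TGGGAA and the longer GTGGGAA that holds it for RBPJ, CCAAT for NF-Y, TTTGAA for the CHR element, CACGTG for the E-box of Myc, and 3 strings for E2F factors. Those were GCGGGAA, the overlapping TTTCCCGC (its reverse complement holds GCGGGAA) and the separate TTTGGCGC. TTTCCCGC was in 5 of 35 S phase genes and 0 of 37 genes of G2 and mitosis, TTTGGCGC in 5 and 1, and CACGTG in 6 and 4, against 3%, 1.46% and 12.8% of all 3967.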

Additional observations from a re-analysis of the deposited data

How the results depend on the processing

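The counts of 55 higher and 117 lower genes depended on the floor: they were 151 and 256 with it at the 35th percentile and 30 and 63 at the 65th. Adding the floor value to every signal, in place of raising low ones to it, left 32 higher and 79 lower. This was counted over the same 4825 genes above the floor. Scaled to equal spiked controls, a setting chosen after seeing the data, 302 were higher and 54 lower. The other settings kept each count within 1.5 times. In every planned setting that recounted genes above the floor on either array, 15 of the 55 and 36 of the 117 genes were called. Among the 15 were Cd8a, Trav9d-3, Itm2a, Pdcd1, Sh2d1a, Rrm2, Kif11 and Ube2s, and among the 36 Hes1, Dtx1, Notch1, Notch3, Ptcra, Cd3g, Il7r, Ccnd2, Trgv4 and Myl10. Cd8b1 could not be among them, since its probe set is not a plain one.

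Several medians changed sign. That of cell cycle inhibitors and quiescence genes was 0.023 with the floor at the 35th percentile. That of dendritic cell and class II genes was -0.051 there and -0.47 at the 65th, in place of 0.25. That of progenitor genes was 0.043 with equal spiked controls. Medians near 0 also did so. Notch pathway modifiers had -0.15 with the floor at the 35th percentile. With equal spiked controls recombination genes had 0.31, cholesterol genes 0.29, the Bcl2 family 0.30 (0.044 with the floor at the 65th percentile) and sort markers 2.04 (1.11 there). The sort marker list holds Cd8a and Cd8b1, both called higher, beside Il2ra, Cd24a, Cd44 and Cd4. E proteins and Id inhibitors had 0.19 with equal spiked controls, 0.0011 with equal medians and 0.14 with either other floor. By second probe sets Tyms-ps was at or below -0.69 and Sox4 0.33. The cause was not tested. With equal spiked controls Cd3g, Il7r, Ly6d, Cd1d1, Cish, Cdkn1a, H2-K1, Isg15 and Isg20 kept their sign and were short of 2-fold. Calls of genes under a signal of about 300 rest on values near the floor.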
